A study of Mus musculus with 6 samples.

Results

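The genes described here encode the core of transforming growth factor beta (TGF-beta) signalling. They are the ligands Tgfb1, Tgfb2, Tgfb3 and Inhbb, the latency protein Ltbp1, the receptors Tgfbr1 and Tgfbr2, and the signal transducers Smad3, Smad4 and Smad7. Members were taken by gene symbol, and every probe that the array's annotation gives one of these 10 symbols was kept. That found 23 probes of 9 genes among the 46116 probes of the array. No probe carried the symbol Smad7, which was not analysed here. Of the 23 probes, 13 (of 9 genes) were bright enough to be tested and 10 were not. Transcripts were measured on 6 Illumina mouse bead arrays, 3 for each of 2 pools of total RNA from skin papillomas, benign tumours of the epidermis. The Atf2 knockout (KO) pool held RNA of 3 mice and the Atf2 wild-type (WT) pool RNA of 2 mice, all of mixed FVB and C57bl6 background. All were given the mutagen DMBA 1 time and then the tumour promoter TPA for 30 weeks, and carried papillomas at about 9 months of age. Arrays of a pool shared 1 RNA and are technical replicates, so the SDs, SEs and p-values cover technical spread, and no biological replicate tests the genotype. The labels do not say which cells lack Atf2 or which part of the gene is deleted.

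TGF-beta ligands are secreted bound to their propeptide, and latent TGF-beta binding proteins tether this inactive complex to the extracellular matrix until it is released. Active ligand joins a type II receptor (Tgfbr2) to a type I receptor (Tgfbr1), which phosphorylates Smad2 and Smad3. These enter the nucleus with the common partner Smad4, while Smad7 is an induced inhibitor of the receptors. In epidermis the pathway is known for restraining keratinocyte division and, in the stroma, for raising matrix production. Atf2, the gene targeted here, encodes a transcription factor that binds the cyclic AMP response element (CRE).

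Median raw intensity was lower on every KO array than on every WT array, at 109.9 to 135.5 on the KO arrays and 135.8 to 148.2 on the WT arrays, and a probe called above background exceeded each array's most frequent intensity by 3 SDs, which 29.22% to 31.39% of probes did on KO arrays and 32.65% to 34.64% on WT arrays. Correlation across probes was 0.9865 to 0.9937 within pools and 0.961 to 0.9639 between pools; probes are not independent replicates. KO array 3 was the dimmest, and before normalization it gave the lowest of the 3 KO values at 13 of the 13 tested member probes and at 88.6% of all tested probes. After normalization it was lowest at 6 of the 13 and at 38.5% of all tested probes. The targeted gene had 1 probe above background (2260348), on 1 of the 3 KO arrays and on all WT arrays. It read 171, 133.2 and 103 on the KO arrays and 184.5, 176.2 and 186.3 on the WT arrays (log2 difference -0.28, limma adjusted p = 0.109). Genotype also coincided with position on the single chip, and these cannot be told apart.

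The main threshold was an adjusted p under 0.05 in limma's moderated test across all tested probes (Benjamini-Hochberg) together with a difference of at least 2-fold. Differences are the normalized KO pool minus the WT pool on the log2 scale. None of the 13 tested member probes passed it, where 1126 of 23058 tested probes did (4.88%), 0.984% of the tested probes being higher and 3.9% lower in the KO pool. Without the fold limit 5 member probes had an adjusted p under 0.05, 2 higher and 3 lower in the KO pool, against 38.5% of all tested probes (20.9% higher, 17.6% lower). At an unadjusted limma p under 0.05 there were 6 member probes, against 45.8% of all tested probes. Normalized values of the 2 pools did not overlap at 6 member probes, 3 higher and 3 lower, while 48.4% of all tested probes were free of overlap (27.8% higher, 20.6% lower). The median difference over the 13 probes was 0.02, beside 0.05 over all tested probes, and the median size was 0.21 beside 0.19. Without the fold limit the members' counts were thus near the shares of the whole array. With it, 13 probes are too few to tell a count of 0 from a share of 4.88%. The 3 differences of more than 0.5 in size were in Ltbp1 (higher), Inhbb (lower) and Tgfbr2 (lower).

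**Figure D1:**
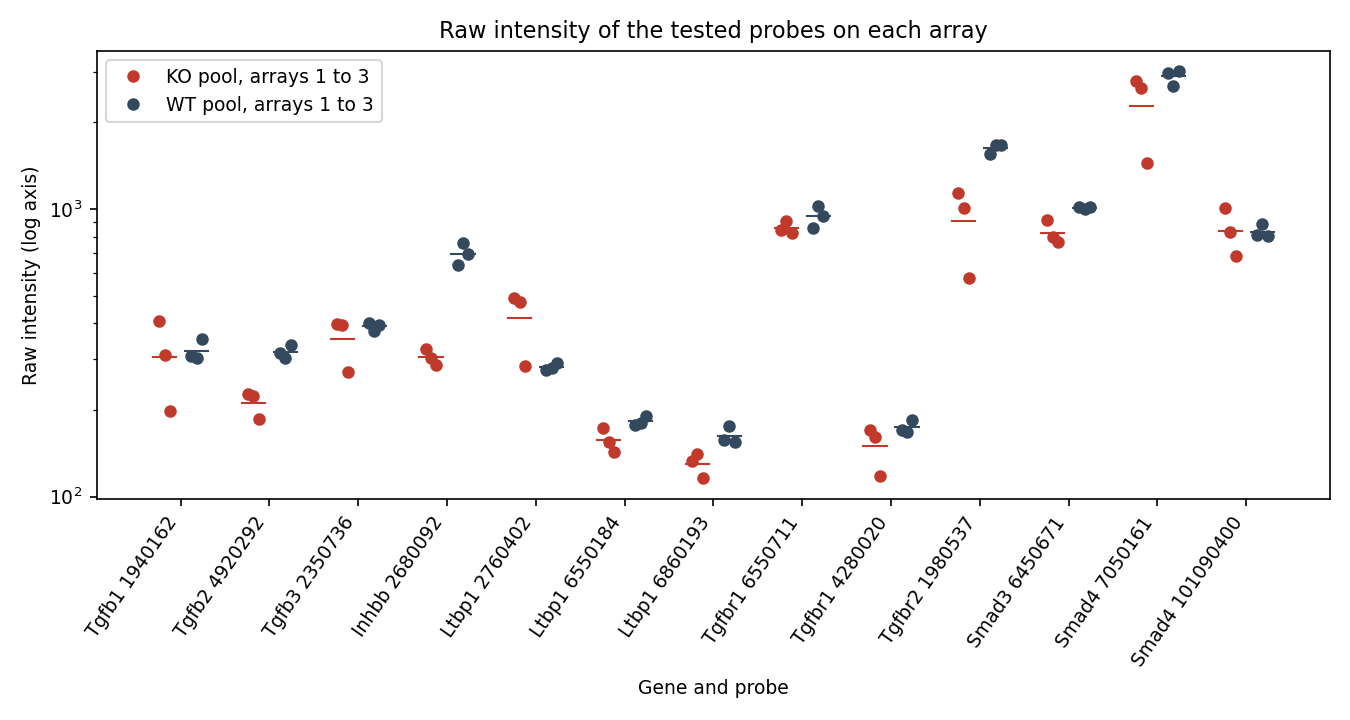
Raw intensity (log axis) of each tested probe on the 3 KO arrays (red, left of each pair) and the 3 WT arrays (dark blue, right); horizontal lines are pool means. KO values of Inhbb, Tgfb2, Tgfbr2 probe 1980537, Smad3 and Ltbp1 probes 6550184 and 6860193 lie below all WT values. Raw values carry the dimmer signal of the KO arrays. After normalization the pools overlap for Smad3 and these Ltbp1 probes. KO array 3 gives the lowest KO point of every probe shown. Levels of different probes cannot be set against each other.

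Among the ligands, Inhbb showed the largest difference. It encodes the beta B subunit of activins and inhibins, of which activins signal through activin receptors to the same Smad2 and Smad3. Its single probe (2680092) read 325.8, 303.6 and 287.4 on the KO arrays and 636.6, 758.5 and 696.5 on the WT arrays. The KO values were all below the WT values, with means of 306 ± 19.3 in the KO pool and 697 ± 61.0 in the WT pool (SD, n = 3 arrays each). After normalization the KO pool was 1.91-fold lower (log2 difference -0.93, SE 0.10, limma adjusted p = 1.32e-05), which is inside the 2-fold limit. The probe passed that limit without KO array 3 (-1.02) and without WT array 1 (-1.01). It also passed it with a normexp offset of 16 (-1.02), after subtraction of the background mode (-1.17) and after median scaling (-1.15).

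Tgfb2, a ligand produced by keratinocytes and hair follicles, was lower in the KO pool by a small amount. Probe 4920292 read 227, 223.9 and 185.9 on the KO arrays and 315.8, 303.7 and 336.8 on the WT arrays. The pools did not overlap, and the normalized values, 7.60, 7.72 and 7.70 in the KO pool and 7.93, 7.86 and 8.06 in the WT pool, did not either. The log2 difference was -0.28 (SE 0.09, limma adjusted p = 0.0238), a 1.21-fold lower level. The adjusted p was above 0.05 without KO array 1, WT array 1 or WT array 3, with a highest value of 0.106. A second Tgfb2 probe (102470451) stayed at background throughout.

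The Tgfb2 promoter is shown with that of Ltbp1 because, of the 9 promoters read for 7 members, these 2 were the ones holding the CRE core, the letters TGACG on either strand. Promoters are the 250 bases before and the 50 bases from the start in RefSeq (GRCm38.p6), printed 5′ to 3′ on the gene's strand with motif matches in capitals. The core was found in 20.8% of all 32851 RefSeq promoters of this length, and the full palindromic octamer TGACGTCA, which contains it, in 1.79%. In the Tgfb2 promoter (chr1:186705940-186706239, minus strand) the capitals are the core read on the opposite strand, 72 to 68 bases before the start. In the first Ltbp1 promoter (chr17:75005279-75005578, plus strand) they are the octamer, 73 to 66 bases before the start. A second Ltbp1 promoter, and those read for Inhbb, Tgfb1, Tgfbr1, Tgfbr2 and Smad3, held neither sequence. No promoter of Tgfb3, Smad4 or Smad7 was read. The AP-1 heptamer TGANTCA, present in 7.81% of all promoters, was in none of the 9. A match describes letters only, and binding was not measured.
Tgfb2: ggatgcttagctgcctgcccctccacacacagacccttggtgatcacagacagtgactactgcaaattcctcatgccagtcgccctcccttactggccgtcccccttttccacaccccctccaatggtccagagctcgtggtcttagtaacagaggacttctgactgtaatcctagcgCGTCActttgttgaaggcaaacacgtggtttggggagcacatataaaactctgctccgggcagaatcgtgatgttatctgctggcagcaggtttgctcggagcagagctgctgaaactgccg
Ltbp1: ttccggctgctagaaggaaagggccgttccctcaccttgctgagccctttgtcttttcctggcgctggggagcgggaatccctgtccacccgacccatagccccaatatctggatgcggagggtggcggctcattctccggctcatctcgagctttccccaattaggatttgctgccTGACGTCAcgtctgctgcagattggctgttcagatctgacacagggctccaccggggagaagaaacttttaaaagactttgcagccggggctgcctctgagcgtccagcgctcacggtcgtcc

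Tgfb1, the ligand most often studied in skin tumours, and Tgfb3 each had a single probe and differed little between the pools. Tgfb1 (1940162) read 406.7, 309.9 and 198.5 on the KO arrays and 309.4, 303.3 and 353.6 on the WT arrays. The KO values spread from below to above the WT values, and the log2 difference of 0.23 (SE 0.15) missed the threshold (limma adjusted p = 0.251). Without KO array 3 the difference was 0.43 with an adjusted p of 0.00569, so the Tgfb1 result depends on that array. Tgfb3 (2350736) read 396.7, 394.5 and 272.1 on the KO arrays and 400.2, 376.1 and 394.9 on the WT arrays. Its raw values overlapped, whereas the normalized KO values (8.49, 8.60 and 8.36) lay just above those of WT (8.31, 8.19 and 8.32). The log2 difference was 0.20 (SE 0.09, limma adjusted p = 0.101). It was 0.27 without KO array 3 (adjusted p = 0.0151) and changed sign after median scaling (-0.03).

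Ltbp1, which encodes a latent TGF-beta binding protein, held the largest positive difference, on 1 of its 8 probes. Probe 2760402 read 490.5, 475.3 and 285 on the KO arrays and 276.5, 279.8 and 292 on the WT arrays. KO arrays 1 and 2 were well above the WT arrays and KO array 3 lay within their raw range. After normalization, which adjusts for the dimmer signal of KO array 3, its value of 8.43 stood with 8.80 and 8.87 on the other KO arrays, above 7.71, 7.73 and 7.81 on the WT arrays. The KO pool was 1.93-fold higher (log2 difference 0.95, SE 0.11, limma adjusted p = 2.60e-05), inside the 2-fold limit. It passed the limit without KO array 3 (1.09, 2.13-fold), with a normexp offset of 16 (1.08) and after subtraction of the background mode (1.33).

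The other Ltbp1 probes gave no such difference. Probe 6550184, above background on all 6 arrays, read 173.1, 154.9 and 143.1 on the KO arrays and 176.8, 179.7 and 191.5 on the WT arrays. The raw KO values were all lower, but after normalization the pools overlapped, with a log2 difference of 0.06 (SE 0.08, limma adjusted p = 0.628). Probe 6860193, above background on 1 WT array and on no KO array, was at -0.13 (adjusted p = 0.378). The remaining 5 Ltbp1 probes stayed at background on the 6 arrays, with log2 differences from -0.01 to 0.29. The files do not place the probes in the Ltbp1 transcripts, so the higher level applies to the transcripts that probe 2760402 detects.

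**Figure D2:**
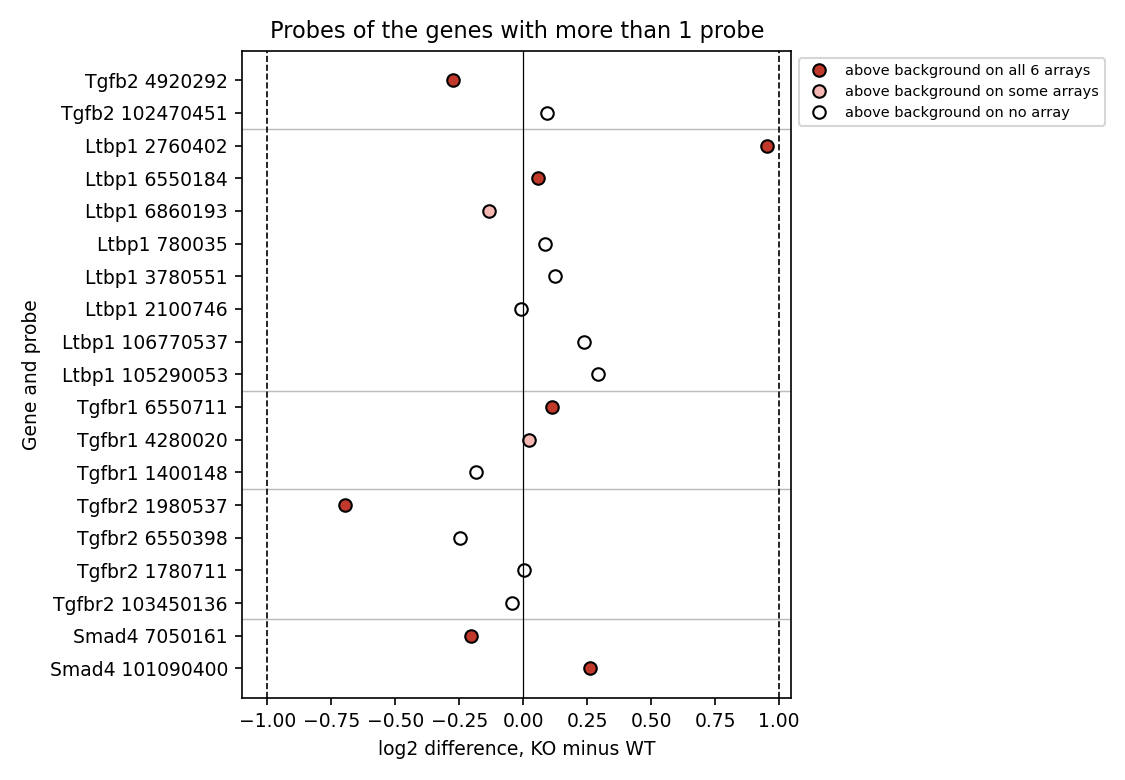
Log2 difference (KO minus WT) of each probe of the 5 genes with more than 1 probe; dashed lines mark 2-fold, and fill shows on how many arrays the probe was above background. For Ltbp1 and Tgfbr2, 1 probe each stands away from 0, at 0.95 and -0.69, while the others lie between -0.25 and 0.29.

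Of the receptors, Tgfbr2 was lower in the KO pool and Tgfbr1 was close to the WT pool. Tgfbr2 encodes the type II receptor that binds ligand first. Its brightest probe (1980537) read 1139.4, 1004.8 and 573.1 on the KO arrays and 1553.9, 1662.1 and 1667.1 on the WT arrays. All KO values were below the WT values, KO array 3 by the widest margin. The normalized level was 1.62-fold lower (log2 difference -0.69, SE 0.13, limma adjusted p = 0.00102). It was -0.52 without KO array 3 (adjusted p = 7.74e-05), and -0.83 to -0.66 under the other settings with all arrays. The other 3 Tgfbr2 probes stayed at background on the 6 arrays, with log2 differences of -0.25, 0.00 and -0.04.

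Tgfbr1 encodes the type I receptor kinase that phosphorylates the Smads. Probe 6550711 read 844.8, 907.7 and 825.9 on the KO arrays and 859.7, 1026.2 and 942.8 on the WT arrays. The ranges overlapped, and the log2 difference was 0.11 (SE 0.11, limma adjusted p = 0.470). Probe 4280020 was at 0.02 (SE 0.10, adjusted p = 0.894), above background on 2 of the 3 KO arrays and on all WT arrays. The remaining probe (1400148) stayed at background on the 6 arrays, at -0.18. Both tested values changed sign after median scaling (-0.03 and -0.06).

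The Smads differed little between the pools, with log2 differences from -0.21 to 0.26. Smad3, a receptor-activated Smad, had 1 probe (6450671) at 916, 798.5 and 765.6 on the KO arrays and 1013, 996.9 and 1017.3 on the WT arrays. The raw KO values were all lower, but after normalization the pools overlapped and the log2 difference was -0.06 (SE 0.09, limma adjusted p = 0.671). Smad4, the common partner Smad, had 2 probes that pointed in opposite directions. Probe 7050161 read 2787.7, 2626.8 and 1438.2 on the KO arrays and 2966.8, 2681.4 and 3011.1 on the WT arrays, a log2 difference of -0.21 (SE 0.14, adjusted p = 0.286). That difference rested on KO array 3, without which it was -0.01. Probe 101090400 read 1005.1, 830.2 and 686.6 on the KO arrays and 810.8, 884.8 and 802.9 on the WT arrays. Its raw values overlapped, its normalized values did not, and the log2 difference was 0.26 (SE 0.09, adjusted p = 0.0312). Its adjusted p was 0.05 or more under 4 of the 11 other settings with all arrays, and when KO array 1 or any 1 of the WT arrays was left out.

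**Figure D3:**
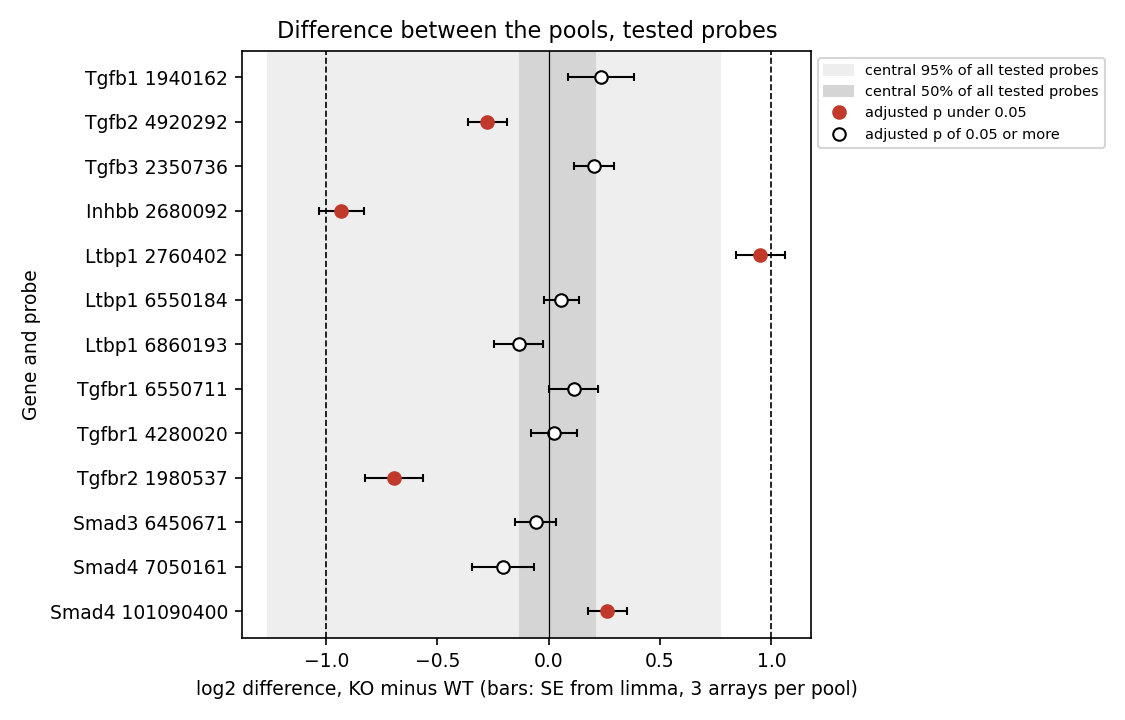
Log2 difference (KO minus WT) of the 13 tested probes with its SE from limma over 3 arrays per pool; filled points have an adjusted p under 0.05, dashed lines mark 2-fold and grey bands give the central 50% (-0.13 to 0.21) and central 95% (-1.26 to 0.77) of all tested probes. Ltbp1 probe 2760402, at 0.95, is the 1 point outside the wider band.

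Other genes of the pathway were grouped by role. Of 92 genes listed, 87 had a named probe and 71 a tested one. Of their 106 tested probes 1 rose and 10 fell (10.4%, beside 4.88% of all tested probes, 0.984% higher and 3.9% lower), with a median log2 difference of -0.12 beside 0.05. Among target genes 5 of 27 probes fell (18.5%, beside 3.9% of all tested probes) and none rose, with a median of -0.23, and 21 of the 27 had an unadjusted limma p under 0.05, beside 45.8% of all tested probes. Both brighter probes of Fn1, the fibronectin gene, fell. Probe 2970647 read 155.2, 157.9 and 165.5 in the KO pool and 435.5, 414 and 462.4 in the WT pool (-1.32, limma adjusted p = 6.27e-06), being above background on 2 KO arrays. Probe 6940037 was not above background on the KO arrays and was at least 2.02-fold lower. The fibrillar collagen genes Col1a1 (its single probe, -1.12) and Col3a1 (its brightest, -1.11) also fell. Acta2, smooth muscle actin, fell on probe 1230082, by at least 1.69-fold since it was not above background on the KO arrays, and was at -0.52 on its brightest probe.

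Among Smads and regulators, 1 of 28 probes rose and 2 fell (10.7%, beside 4.88% of all tested probes past the threshold). Their median was -0.08 beside 0.05. The rise was in Ski, which encodes a co-repressor that binds Smad complexes. Probe 6590008 read 489.9, 446.6 and 436.4 on the KO arrays and 216.5, 201.1 and 203.7 on the WT arrays, a 3.12-fold rise (log2 difference 1.64, SE 0.10, limma adjusted p = 8.15e-08). A second Ski probe (100670091) was at 0.50. Ppm1a, a phosphatase gene, fell by 1.69 on the log2 scale on probe 5900273 and was at -0.15 on its brighter probe. Tgif1, a homeodomain co-repressor gene, fell on probe 2850403, by at least 1.92-fold since it was not above background on the KO arrays; its other probes were at -0.73 and -0.65. Thus the falls of Ppm1a and Tgif1 were past the threshold on 1 probe each. With the authors' normalized values Tgif1 (-0.83) and Fn1 probe 6940037 (-0.95) stayed inside 2-fold. The same held for both with a normexp offset of 100 (-0.852 and -0.975), and for Tgif1 without background correction (-0.912).

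Among latency and activation genes 2 of 29 probes fell and none rose (6.9%, beside 4.88% of all tested probes past the threshold). Their median was -0.14 beside 0.05. They were in Dcn, the decorin gene, whose product binds TGF-beta (probe 510332, -1.83), and Plat, tissue plasminogen activator (-1.23). The brightest Dcn probe was at -0.72. Among other ligands and antagonists 1 of 9 probes fell (11.1%, beside 4.88% of all tested probes), that of Fstl1, a secreted follistatin-like protein gene. It read 260.1, 260.7 and 210.3 on the KO arrays and 1285.3, 1174.5 and 1159.3 on the WT arrays, 4.50-fold lower (log2 difference -2.17, SE 0.09, limma adjusted p = 4.27e-09). Among the other receptors 0 of 13 probes passed the threshold in limma, beside 4.88% of all tested probes, 6 had an unadjusted p under 0.05, beside 45.8%, and the brightest, of the BMP and activin type I receptor gene Acvr1, was at 0.05 (adjusted p = 0.699).

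**Figure D4:**
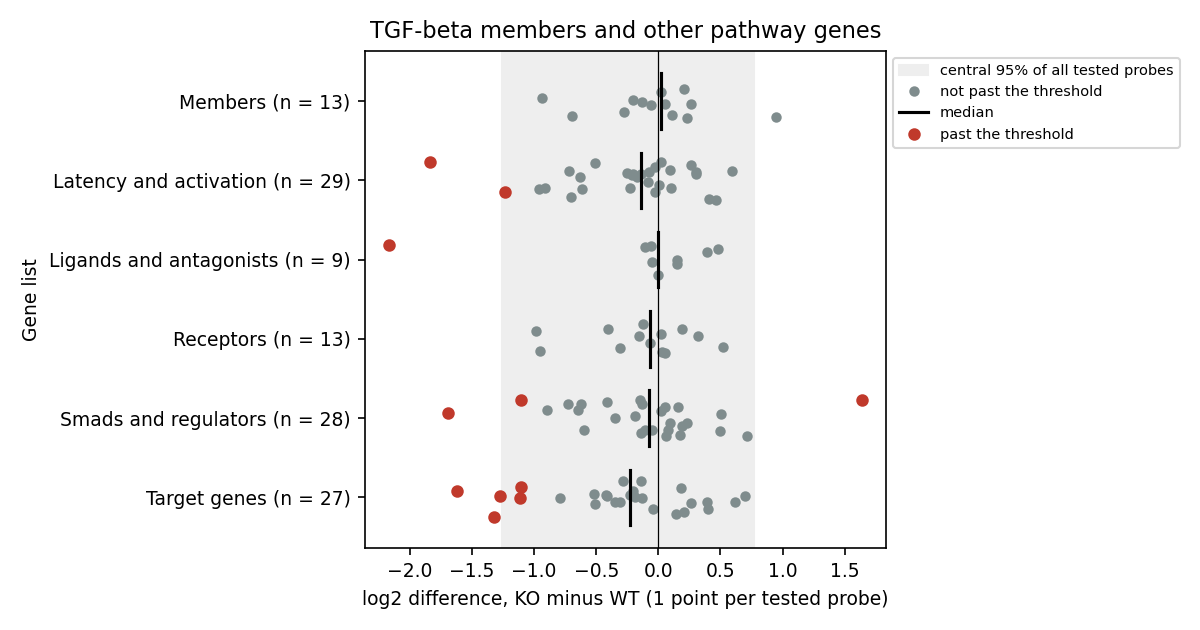
Log2 difference (KO minus WT) of the tested probes of the members and of the other pathway lists, 1 point per probe, with the median of each list as a line; red points passed the threshold. The 11 red points are 1 rise (Ski) and 10 falls, and none is a member. The grey band is the central 95% of all tested probes.

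Every tested probe of the fibroblast and skeletal muscle markers had a lower mean in the KO pool. All 11 tested probes of the 6 fibroblast markers (Col1a1, Col1a2, Col3a1, Dcn, Lum and Pdgfra) had negative differences. Of these 11 probes 4 fell (36.4%, beside 4.88% of all tested probes past the threshold). Raw sums, given next for each marker list, carry the dimmer raw signal of the KO arrays. The summed raw intensity of the 12 fibroblast probes was 3744 to 5055 on the KO arrays and 9441 to 10220 on the WT arrays. Of these 6 genes 4 also stand in the pathway lists, and 3 of the 11 pathway probes past the threshold belong to them. Skeletal muscle markers (5 genes, 6 probes) summed to 834.6 to 1287 on the KO arrays and 2071 to 2242 on the WT arrays, and all 5 tested probes had negative normalized differences (median -0.54). Macrophage markers (3 genes with a probe) summed to 1222 to 1661 on the KO arrays and 2179 to 2240 on the WT arrays. However, 2 of their 4 tested probes had positive normalized differences. Lyz2 fell on its brightest probe (-1.40, limma adjusted p = 7.17e-06), while Cd14 was at -0.21. The 2 positive probes were that of Adgre1, at 0.00, and a dimmer Lyz2 probe at 0.10, above background on no array. Endothelial markers (5 genes, with Kdr and Tek not above background) summed to 1576 to 2020 on the KO arrays and 2296 to 2351 on the WT arrays. Of their 5 tested probes 3 had positive and 2 negative normalized differences (median 0.10), and none passed the threshold. One Pecam1 probe (4810139) was at -0.91, Cdh5 at -0.20, the brighter Pecam1 probe at 0.10 and the tested Eng probe at 0.19. The other positive probe, of Kdr at 0.15, was above background on no array. Platelets carry much TGF-beta, and their markers summed to 1390 to 1706 on the KO arrays and 2074 to 2204 on the WT arrays, with Gp9 and Itga2b not above background. The other platelet markers pointed in opposite directions, Ppbp at -0.64 (adjusted p = 0.0190) and Pf4 at 0.85 (adjusted p = 0.000124). T cell markers summed to 742.3 to 932.2 on the KO arrays and 842.7 to 1009 on the WT arrays, with Cd3g and Cd8a not above background, yet their normalized median was 0.13. Of their 4 tested probes 2 had positive and 2 negative differences. Among them Cd3d was at 0.30 (adjusted p = 0.0291). Cd3e, above background on 1 KO array and on no WT array, was at least 1.06-fold higher. The 2 erythroid markers with a probe rose, and summed to 17530 to 20150 on the KO arrays and 10420 to 10920 on the WT arrays. Keratinocyte markers (7 genes, 9 probes) summed to 76210 to 86450 on the KO arrays and 73280 to 74950 on the WT arrays. Krt14, the largest part of the sum, lay near the top of the intensity range. Its raw values were lower on the KO arrays (40384 to 46222) than on the WT arrays (48003 to 49828). The brighter Krt10 probe read 21252 to 23542 on the KO arrays and 8555.9 to 9148.6 on the WT arrays. Of the 8 tested keratinocyte probes 3 had positive and 5 had negative differences (median -0.04). Krt10, a keratin of suprabasal cells, rose (1.52, adjusted p = 6.32e-08), while Krt1 was at -0.27 and Perp at -0.03. Dsp, not above background on the KO arrays, was at least 1.13-fold lower. Of the basal genes Trp63 was at 0.40 on its brighter probe (adjusted p = 0.00145), Krt5 at 0.14 and Krt14 at -0.07. The part of these cells in the differences of Tgfbr2, Inhbb, Ltbp1 and the matrix genes was not tested, and in pooled tissue fewer cells of a type and less RNA per cell cannot be told apart.

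**Figure D5:**
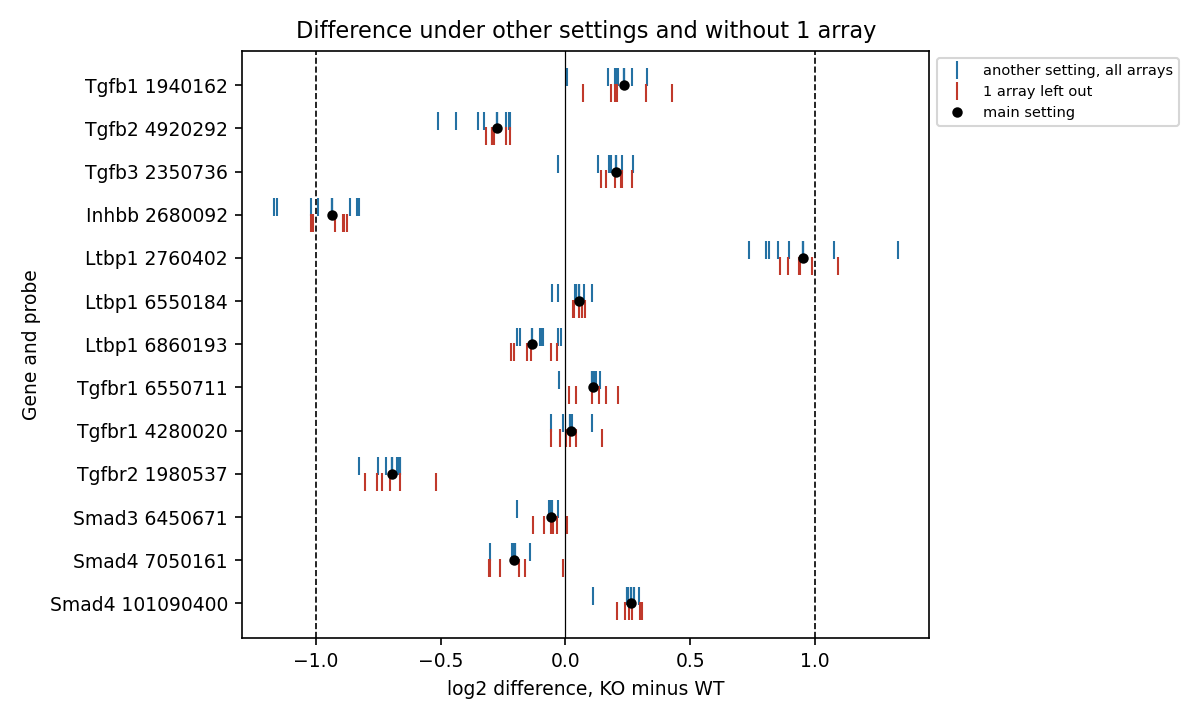
Log2 difference (KO minus WT) of the 13 tested probes in the main setting (black), under other settings with all arrays (blue) and with 1 array left out (red); dashed lines mark 2-fold. Only Inhbb and Ltbp1 probe 2760402 reach the dashed lines, and their direction is the same at every point drawn.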

How the data were processed

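Cy3-labelled total RNA was hybridised to Illumina bead arrays, with BeadStudio 3 named as software in the submitters' processing notes. Each array has a deposited file of raw intensity by probe, linear per the file headers, without detection p. A second deposited table has log2 values that follow 1 distribution in its 6 columns, as after quantile normalization. How the authors made it is not stated, and it served as an alternative.

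Raw intensities were corrected with limma's normexp (offset 50, which shrinks differences of dim probes), converted to log2 and quantile-normalized (R 4.3.3, limma 3.58.1). Probes above the median mean signal (23058 of 46116) were tested with lmFit and eBayes with an intensity trend, two-sided, with Benjamini-Hochberg adjustment over all of them. The procedure was tested on simulated arrays. For a probe at background on all arrays of 1 pool, only a bound is given: the brighter pool's mean against the higher of the lowest normalized value above background and the probe's own. Precision is limited by having 3 arrays per pool.

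Genes were named from the platform annotation (29534 probes with 1 symbol, 11 with several, 16571 with none), which can hold old symbols. Every member probe is named; from each pathway list up to 4 genes in each direction with the largest differences past the threshold are named or, with none, the gene of the brightest probe. Probes of named genes beside these were added for comparison. Members, lists, thresholds and the background rule were chosen with earlier results of these data known. Array numbers did not pair the arrays: deviations of same-numbered arrays correlated at 0.106, -0.13 and 0.0434.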

Additional observations from a re-analysis of the deposited data

How the results depend on the processing

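Besides the main setting, 11 other settings with all arrays and 6 that leave out 1 array were run. Of the members, the direction of Inhbb, Tgfb1, Tgfb2, Ltbp1 probe 2760402, Tgfbr2 probe 1980537 and both Smad4 probes held in all of these. The number of member probes past the threshold, 0 in the main setting, was 2 with a normexp offset of 16, 2 after subtraction of the background mode and 1 after median scaling (Inhbb, with Ltbp1 where there were 2). Leaving out 1 array gave 0 to 2, with 2 without KO array 3 and 1 without WT array 1. The count over all tested probes, 1126, was 2021 after subtraction of the background mode, 748 with the authors' normalized values and 656 with the test limited to the 11840 probes above background throughout; it was 1093 to 1228 with 1 array left out. Higher calls made up 20.2% of it in the main setting, 10.1% after median scaling and 36.0% after subtraction of the background mode. The count of other pathway probes, 11, was 17 with an offset of 16, 20 after subtraction of the background mode and 7 with that limit, and 11 to 15 with 1 array left out. Changes of sign were confined, among the values tested, to Tgfb3, at 0.20 in the main setting, and to differences of at most 0.112 in size. The signs that changed after median scaling were those of Ltbp1 probe 6550184 (-0.054), Tgfb3 (-0.03), Tgfbr1 probes 6550711 (-0.026) and 4280020 (-0.058) and Acvr1 (-0.097). After subtraction of the background mode they were Ltbp1 probe 6550184 (-0.03) and Tgfbr1 probe 4280020 (-0.01). With 1 array left out they were Tgfbr1 probe 4280020 (-0.02 without KO array 1, -0.056 without KO array 2, highest 0.145), Smad3 (0.006 without KO array 2, range -0.13 to 0.006) and Acvr1 (-0.003 without KO array 3, range -0.003 to 0.11). The causes were not tested. Scaling to the 75th percentile moved the median difference of all probes by 0.15 on the log2 scale. With the array number as a replicate block, 1128 of all tested probes, 0 member probes and 11 other pathway probes passed. Without the fold limit, Smad4 probe 101090400 no longer had an adjusted p under 0.05 (0.058); the other 4 member probes did. Dim signal limits the 10 member probes not above background, for which no difference was detectable.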
